A study of Mus musculus with 17 samples.

Results

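The membrane-bound mucins Muc1, Muc4, Muc13, Muc15, Muc16 and Muc20 were followed across RNA-seq libraries of mouse bile duct. They were chosen by gene name, and each of the 6 names matched 1 of the 43346 genes in the deposited count table. A filter on low counts kept 15795 genes, 4 of the mucins among them: Muc1, Muc4, Muc13 and Muc20 passed, and Muc15 and Muc16 did not.

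The study was on extrahepatic cholangiocarcinoma, which arises from the large bile ducts that run between liver and gut. It held 17 samples of total RNA, all from mice and all labelled as bile duct, so there was 1 group. Each sample title joined Mouse_eCCA to a serial number, and eCCA is short for that cancer. The labels gave no genotype, strain, treatment, time, age or sex. They did not otherwise say whether a sample held tumour, or whether samples came from separate animals. The p-values below therefore measure only the spread between these libraries, part of which may be technical. In the table a column name joins a code to a running number. There were 6 codes, of which R62848, R62850, R63289, R63496 and R63500 had 3 libraries each and R63494 had 2. The meaning of the codes is not stated in the labels or the table, and no column name matched a sample title, so libraries are called by their column (R62848_1). Comparing libraries of 1 code with libraries of the other codes asks whether the RNA level of a mucin went with the code.

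Membrane-bound mucins are large glycoproteins anchored in the apical surface of epithelial cells. Their extracellular part carries dense O-linked glycans on repeated stretches rich in serine and threonine, and forms part of the glycocalyx that shields the cell from enzymes, microbes and, in the bile duct, bile. Their short cytoplasmic tails can take part in signalling, and several of them are made in larger amounts in adenocarcinomas. Secreted mucins such as Muc2, Muc5ac, Muc5b and Muc6 instead form gels and have no membrane anchor.

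Upstream sequence of the 4 expressed mucins is shown so that the common promoter elements of the genes compared below can be read off. The 250 bases before the RefSeq start (for Muc13, the first of 2 starts) are printed 5′ to 3′ on the gene's own strand, from mouse GRCm38.p6. They are chr3:89228806-89229055 (plus strand) for Muc1, chr16:32735636-32735885 (plus strand) for Muc4, chr16:33793787-33794036 (plus strand) for Muc13 and chr16:32797436-32797685 (minus strand) for Muc20. Capitals mark matches on either strand to the TATA box TATAAA, the GC box GGGCGG, the E-box CACCTG and the STAT element TTCNNNGAA.
Muc1: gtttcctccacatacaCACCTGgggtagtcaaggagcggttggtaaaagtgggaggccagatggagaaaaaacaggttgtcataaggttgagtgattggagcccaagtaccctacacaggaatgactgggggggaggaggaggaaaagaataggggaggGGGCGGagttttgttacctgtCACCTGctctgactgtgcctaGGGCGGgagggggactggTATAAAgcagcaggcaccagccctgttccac
Muc4: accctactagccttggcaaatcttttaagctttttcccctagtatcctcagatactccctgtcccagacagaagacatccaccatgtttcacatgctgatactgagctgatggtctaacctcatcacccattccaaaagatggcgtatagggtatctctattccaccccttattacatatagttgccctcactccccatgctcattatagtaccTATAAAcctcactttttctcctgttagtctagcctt
Muc13: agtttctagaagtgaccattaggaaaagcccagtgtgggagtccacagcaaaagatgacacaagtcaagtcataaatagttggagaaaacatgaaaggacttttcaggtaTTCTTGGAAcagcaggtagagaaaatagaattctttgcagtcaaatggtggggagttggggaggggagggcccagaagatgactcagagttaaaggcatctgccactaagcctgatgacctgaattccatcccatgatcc
Muc20: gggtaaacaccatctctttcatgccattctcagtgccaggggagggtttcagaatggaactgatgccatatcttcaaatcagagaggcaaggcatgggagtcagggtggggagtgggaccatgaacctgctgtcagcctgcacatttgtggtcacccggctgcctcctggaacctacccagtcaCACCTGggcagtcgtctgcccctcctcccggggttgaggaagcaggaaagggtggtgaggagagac
The Muc1 stretch held 1 TATA box 31 bases before the start, 2 GC boxes and 2 E-boxes. The Muc4 stretch held 1 TATA box, 36 bases before the start, and no match to the other elements. Muc20 had 1 E-box, and the window printed for Muc13 had 1 STAT element. RefSeq gives Muc13 a second start, and its window (chr16:33794239-33794488) held no match to any of the 4 elements. Among 32817 RefSeq promoter windows of the same length, 12.4% held the TATA box, 32.7% the GC box, 17.2% the E-box and 7.01% the STAT element. The G and C content was 54.8% for Muc1, 43.6% for Muc4, 44.8% for Muc13 and 57.2% for Muc20. These are letter matches in a fixed window and say nothing of which factor was bound.

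Read totals ran from 16400556 to 24152314 counts per library, with a median of 17886041. Levels are given as RPKM, the reads of a gene divided by its exon length and by library size, computed from the counts with the table's gene lengths and a library size that is the TMM-scaled sum over the kept genes, so that genes of different length can be set side by side. The bile duct label was checked against epithelial keratins, claudins and adhesion genes. All 10 of these markers, among them Epcam, Krt7, Krt8, Krt18, Krt19, Cdh1, Cldn3, Cldn7 and Sox9, passed the filter, and their summed level was 5863 to 9097 CPM (counts scaled by library size only), so epithelial RNA was present in each library. Fibroblast markers, 7 of 7 of which passed, summed to 2610 to 11391 CPM. The pieces were therefore mixed tissue. In such bulk RNA, fewer cells of a type and less RNA per cell cannot be told apart.

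Muc1 was the most abundant of the 6. Muc1 encodes the widely expressed epithelial mucin whose shed fragment is measured in patients as CA15-3 and whose tail binds beta-catenin. The gene (ENSMUSG00000042784) lies at chr3:89229057-89233381 on mm10. Its level was 280.2 RPKM in the lowest library (R63500_2), 464 at the median and 647 in the highest (R63494_1), and ranked 80 among the 15795 genes kept. Counts of Muc1 made up 36.8% to 58.7% of the counts of the 6 mucins in a library.

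Muc13 followed. It encodes a mucin with a short glycosylated part and epidermal growth factor-like repeats, best known from the intestinal epithelium. The gene (ENSMUSG00000022824) lies at chr16:33794037-33819934. Its level ran from 112 RPKM (R63289_1) over a median of 131 to 212 (R63494_1), and its rank by median was 355.

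Muc4, the large mucin that can associate with the receptor Erbb2, came next. The gene (ENSMUSG00000079620) lies at chr16:32735886-32782391. Its level was 22.1 RPKM in the lowest library (R62850_2), 52.6 at the median and 75.7 in the highest (R63494_1). Because its exons are long, 11757 bases against 2346 for Muc1, Muc4 drew 174237 reads in all 17 libraries together against 325707 for Muc1.

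Muc20, a mucin described as a partner of the hepatocyte growth factor receptor Met, was the lowest of the expressed members. The gene (ENSMUSG00000035638) lies at chr16:32777419-32797435. It stood at 22.3 RPKM (R62850_3) to 37.9 RPKM (R63494_1) with a median of 28.4, and it ranked 2305. Its largest value was only 1.70 times its smallest, against 3.43 times for Muc4, 2.31 times for Muc1 and 1.89 times for Muc13.

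The order held inside the libraries as well as at the median. Muc1 exceeded Muc13 and Muc13 exceeded Muc4 in 17 of 17 libraries. Muc4 exceeded Muc20 in 15 of 17, the exceptions being R62850_1 and R62850_2. The SD of log2 CPM over the libraries was 0.54 for Muc4, 0.34 for Muc1, 0.28 for Muc13 and 0.21 for Muc20. The median over all kept genes was 0.27, so Muc4 varied more than most genes (percentile 82.6) and Muc20 less than most (percentile 34.7). All 4 had their highest level in R63494_1, the library in which 9.95% of all kept genes had theirs.

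**Figure D1:**
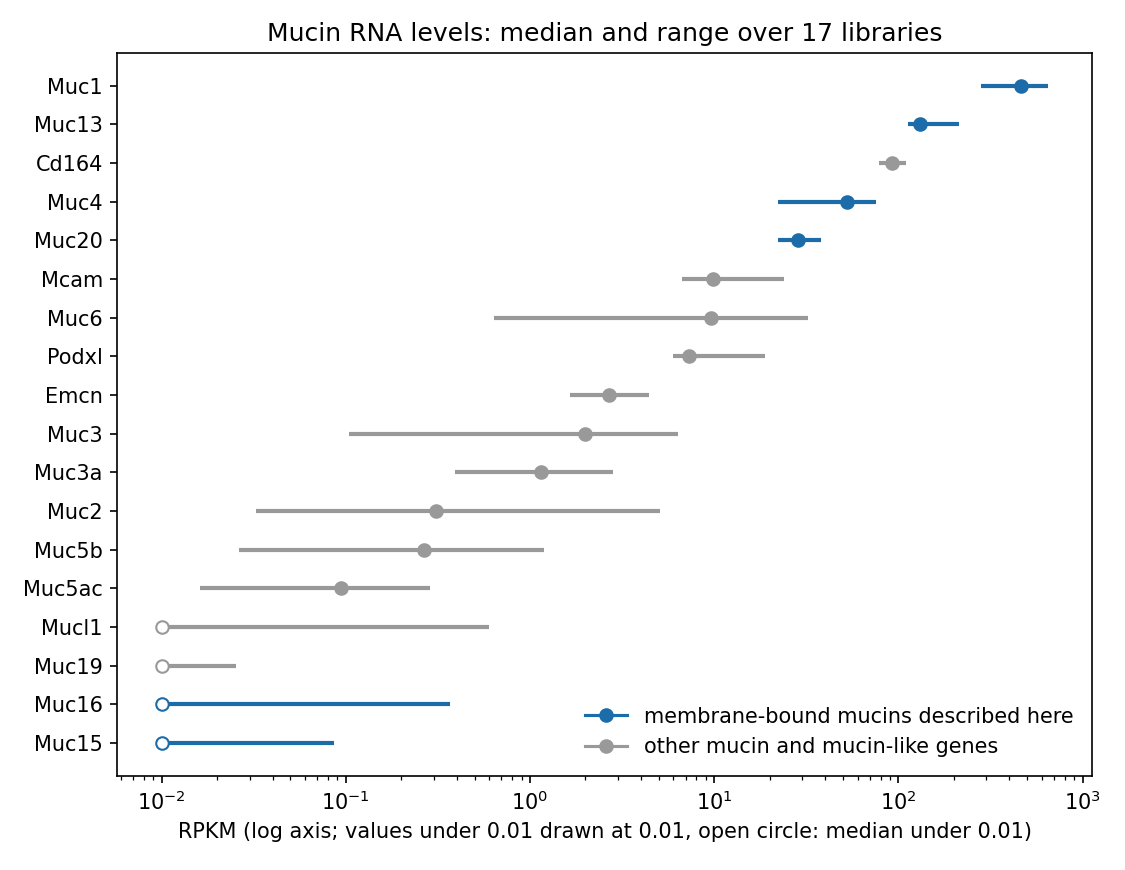
RNA level in RPKM (log axis) of the membrane-bound mucins followed here (blue) and other mucin and mucin-like genes (grey). Some grey genes, such as Muc3 and Muc3a, are membrane mucins too. Points are medians and bars the range over 17 libraries. Muc1 and Muc13 stand above every other mucin gene plotted, and Muc15 and Muc16 have medians of 0, drawn at 0.01.

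Muc15 and Muc16 were close to undetected. Muc15 (ENSMUSG00000050808, chr2:110721340-110739527) encodes a smaller membrane mucin first described in milk fat globule membranes. It had 7 reads in all: 5 in R62848_3 and 1 each in R63289_2 and R63289_3. In the 14 libraries with no read, the limit that a count of 0 allows (3 reads) lay within 0.0364 to 0.0577 RPKM, the range of that limit over the 17 libraries. Muc16 encodes the very large mucin whose shed part is the CA125 antigen and which binds mesothelin. It had 10 reads, 3 in R62848_1 and 7 in R62848_2, the latter 0.367 RPKM, and none in the other 15 libraries, where the limit lay within 0.126 to 0.199 RPKM.

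Both Muc16 values came from libraries of 1 code, R62848. The table's Muc16 model (ENSMUSG00000032134, chr9:18495455-18512885) held 1035 exon bases over 17431 bases of genome. In GENCODE M21, the gene of that name spans 179076 bases and has 26350 exon bases. The table's model covers its 3′ end only, and reads from the rest of the gene are not in these counts. Mesothelium is a known site of Muc16. The 8 mesothelial markers summed to 6.38 to 21.04 CPM, with the highest sum in R62848_1, and 6 of the 8 failed the filter; their part in the Muc16 reads was not tested. Without the filter, edgeR's F test over the codes gave adjusted p = 0.395 for Muc15 and 0.105 for Muc16, in a fit that called 29.1% of 29354 genes.

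Muc4 and Muc20 share part of their locus. They lie on opposite strands with their 3′ ends facing each other, and their spans overlap by 4973 bases. In exons, 627 bases are shared, which is 5.33% of the Muc4 exon bases and 15.6% of those of Muc20. Whether the counting used strand is not stated in the labels or the table, so reads from these bases cannot be assigned to either gene with certainty. Muc13 lies 996601 bases from Muc20 on the same chromosome, with 21 annotated genes between them, 12 of them protein-coding.

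**Figure D2:**
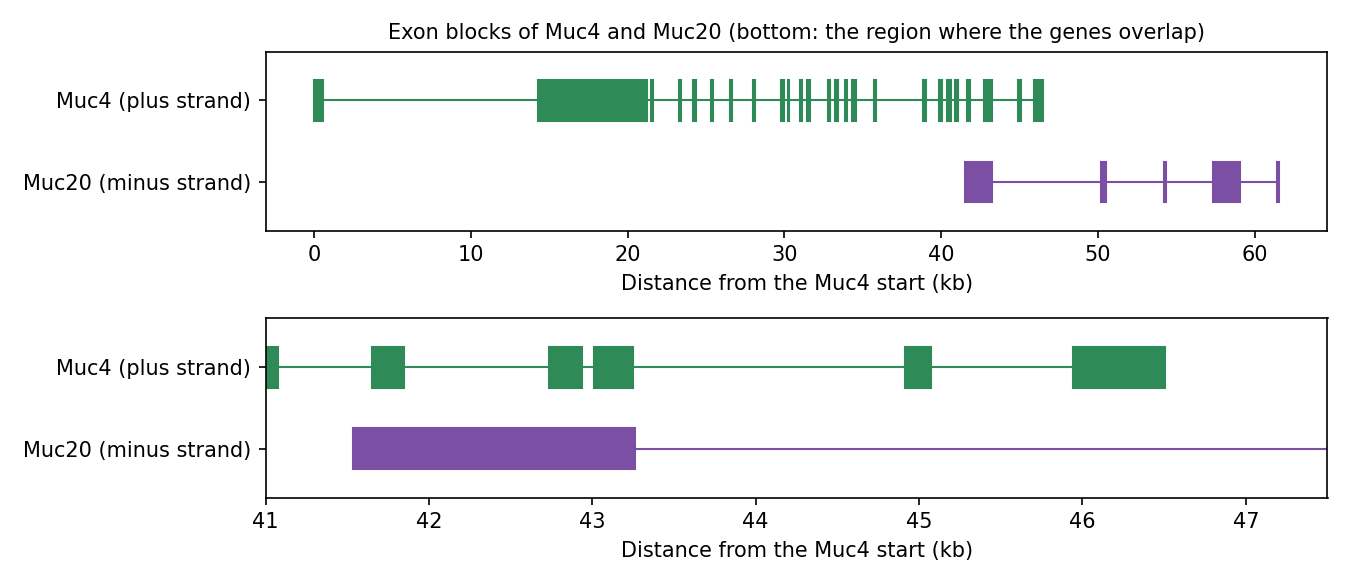
Exon blocks (boxes) of Muc4 and Muc20 by distance from the Muc4 start in kilobases; the lower panel enlarges the overlap. The last exon of Muc20 faces several 3′ exons of Muc4, and 627 exon bases are common to both genes.

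Each of the 4 expressed mucins differed between the column codes. In edgeR's quasi-likelihood F test over the 6 codes, the Benjamini-Hochberg adjusted p was 2.21e-06 for Muc4, 1.94e-05 for Muc1, 6.97e-05 for Muc13 and 0.0213 for Muc20. The same test called 48.7% of all kept genes, and 62.7% of the 2305 genes with a median level at or above that of Muc20. The count of 4 of 4 is read against those shares: differences between codes were common in these libraries, and more so among abundant genes.

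Muc1 was highest in R63494, at 647 and 557 RPKM (mean 602 ± 63.4, SD, n = 2). It was at 464, 543 and 527 RPKM in R63496, at 518, 482 and 465 in R63289, and at 502, 427 and 442 in R62850. The lowest libraries were those of R62848 (309.5, 355 and 393 RPKM) and R63500 (333, 280.2 and 344 RPKM). The 6 libraries of R62848 and R63500 did not overlap with the 11 others, whose lowest Muc1 value was 427 RPKM. Going down the order of code means, only R63494 against R63496 and R62850 against R62848 were neighbours whose libraries did not overlap.

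Against the mean of the other 5 codes, Muc1 was higher in R63494 by 0.52 ± 0.095 on the log2 scale (SE, adjusted p = 0.000569, edgeR). It was lower in R63500, with a log2 difference of -0.58 ± 0.088 (adjusted p = 7.66e-05), and in R62848, with -0.40 ± 0.087 (adjusted p = 0.00192). The differences in R62850 (0.047), R63289 (0.16) and R63496 (0.24) did not pass, with adjusted p = 0.720, 0.333 and 0.0634, though the last passed under 8 of 24 alternatives. Over all kept genes, the shares called were 9.3% higher in R63494, 8.93% lower in R63500 and 10.6% lower in R62848. In the 6 libraries where Muc1 was low, fibroblast markers summed to 9376 to 11391 CPM, against 2610 to 6270 CPM in the other 11. The epithelial sum overlapped between these sets (5863 to 9097 CPM against 6660 to 8765 CPM), and R63500_2, the library with the lowest Muc1, had the highest epithelial sum. Endothelial markers separated the same 6 libraries, at 263 to 391 CPM against 184 to 239.8 CPM. So did the sum of 8 squamous markers, of which none passed the filter, at 6.80 to 38.1 CPM against 0.606 to 3.22 CPM. Of the 38.1 CPM, found in R63500_2, Krt6a gave 34.9 CPM. Krt14 reached at most 6.30 CPM in any library, Trp63 1.58, Krt5 0.549 and Ivl 0.226 CPM. Mesothelial, myeloid, acinar and goblet sums overlapped. The part of the fibroblast and endothelial RNA, and of Krt6a and Krt14, in the Muc1 difference was not tested. As a share of the epithelial sum, Muc1 was lowest in R63500 (9.62% ± 2.08, SD, n = 3) and next in R62848 (13.01% ± 2.25, SD, n = 3). It was 14.8% ± 0.381 in R62850, 15.5% ± 0.877 in R63496 and 16.4% ± 0.876 in R63289 (SD, n = 3 each), and 16.7% ± 2.51 (SD, n = 2) in R63494. On this scale the libraries of R62848 overlapped with those of R62850 and R63500, and those of R63494 with R62850, R63289 and R63496.

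**Figure D3:**
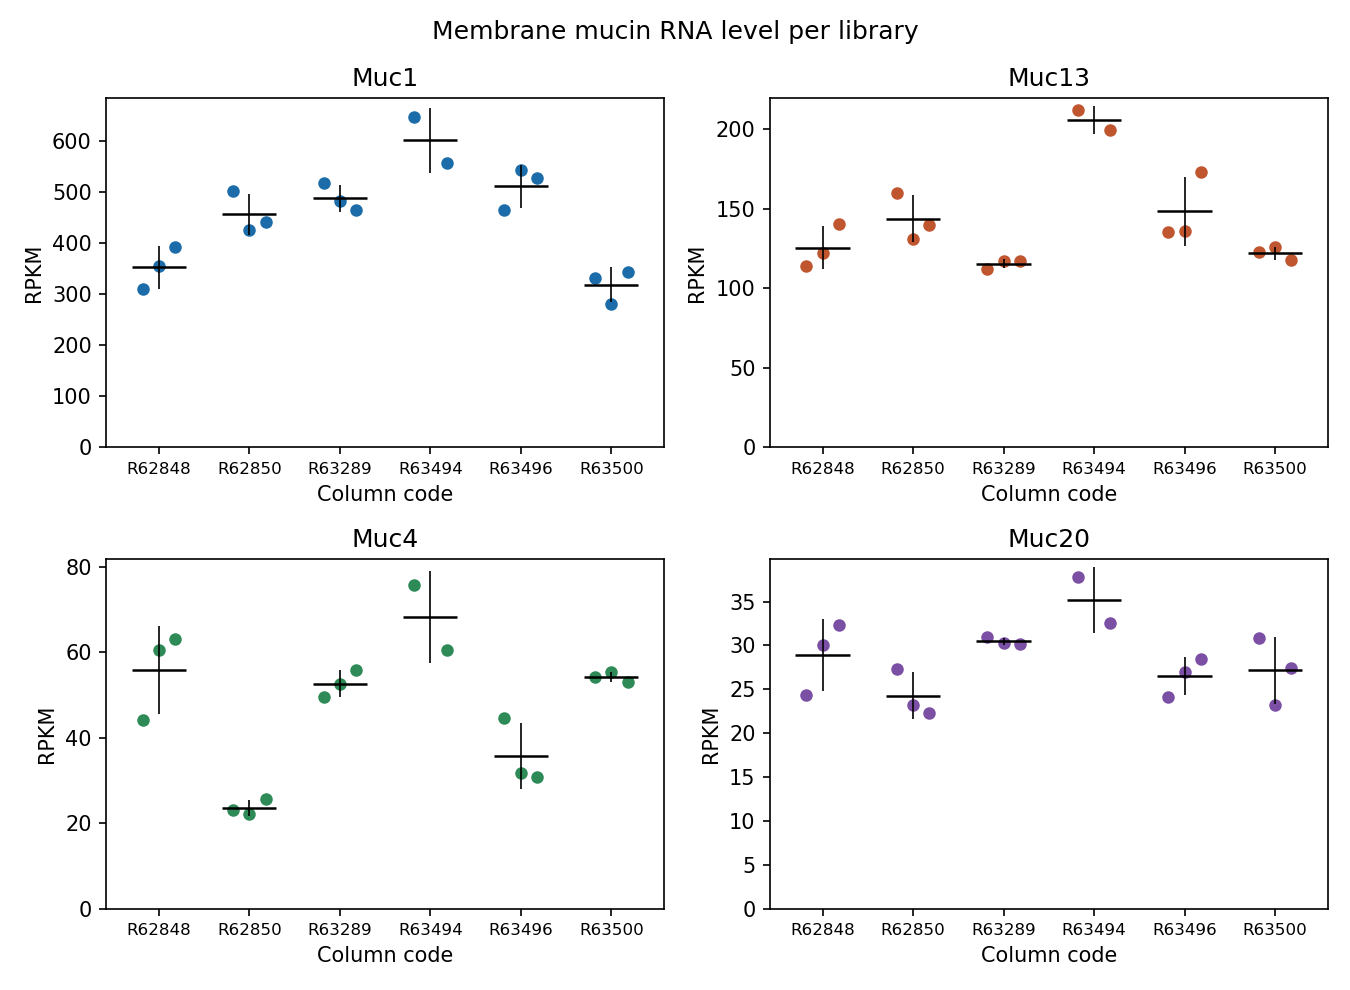
RNA level in RPKM of Muc1, Muc13, Muc4 and Muc20 in each library (points) by column code, with the code mean (horizontal line) and SD (vertical line). R63494 has the highest mean for all 4 genes, while the code with the lowest mean is R63500 for Muc1, R63289 for Muc13 and R62850 for Muc4 and Muc20.

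Muc4 followed a different order. Its libraries of R62850 stood at 23.1, 22.1 and 25.6 RPKM (mean 23.6 ± 1.84, SD, n = 3), below every library of the other codes. R63496 came next with 44.5, 31.6 and 30.8 RPKM. The levels were 44.1, 60.4 and 63.1 RPKM in R62848, 49.5, 52.6 and 55.8 in R63289, 54.1, 55.4 and 53.0 in R63500, and 75.7 and 60.6 in R63494. The code means of R62848, R63500 and R63289 (55.9, 54.2 and 52.6 RPKM) were not separated, since their libraries overlapped.

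The R62850 libraries were lower than the other codes by 2.21-fold for Muc4, a log2 difference of -1.15 ± 0.119 (SE, adjusted p = 4.22e-06, edgeR; 12.8% of all kept genes were called lower in that code). This was the largest of the 24 code differences of the 4 mucins. Muc4 was higher in R63494 (0.69 ± 0.121, adjusted p = 0.000461) and in R62848 (0.35 ± 0.106, adjusted p = 0.0210; 15.2% of genes were called higher there). It was lower in R63496 (-0.43 ± 0.112, adjusted p = 0.0189; 6.52% called lower). In R63289 (0.24, adjusted p = 0.242) and R63500 (0.29, adjusted p = 0.0546) Muc4 did not pass, though the R63500 difference passed under 7 of 24 alternatives. The R62848 call was lost without R62848_2 (adjusted p = 0.146) or R62848_3 (0.221), and with the epithelial marker level as a covariate the difference was 0.077 (adjusted p = 0.852). The R63496 call was lost without R63496_2 (adjusted p = 0.159) or R63496_3 (0.118), and became -0.25 with that covariate (adjusted p = 0.325).

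The R62850 libraries also held pancreatic acinar RNA. The summed level of 11 acinar markers was 5648 to 128394 CPM there and 41.2 to 158 CPM elsewhere. Within R62850 the share of these markers in all counts was 0.554%, 2.21% and 10.7% in libraries 1 to 3, while the Muc4 share of all counts was 0.0266%, 0.0256% and 0.0252%. In RPKM, whose library size leaves out most acinar genes, Muc4 stood at 23.1, 22.1 and 25.6. Goblet and gastric mucous markers summed to 1938 to 4369 CPM in R62850, but Zg16, which acinar cells also make, gave 112 to 2609 CPM of this and at most 0.787 CPM elsewhere. Without Zg16 the sum was 1595 to 1826 CPM in R62850, 1875 to 1877 CPM in R63494, where Muc4 was highest, and 771 to 1304 CPM in the other codes. The part of the acinar and mucous RNA in the Muc4 level was not tested.

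Muc13 stood apart in R63494. Its libraries stood at 212 and 199.7 RPKM (mean 206 ± 8.71, SD, n = 2), above the highest value of any other code, 173 RPKM in R63496_3. The remaining values were 135 and 136 RPKM in R63496, 160.1, 131 and 139.8 in R62850, 114, 122 and 141 in R62848, 123, 126 and 118 in R63500, and 112, 117 and 117 in R63289. The means of these 5 codes ran from 115.5 RPKM in R63289 to 148 RPKM in R63496. The highest R63289 library (117.3 RPKM) was just below the lowest R63500 library (117.6 RPKM).

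The Muc13 difference in R63494 was 0.66 ± 0.090 on the log2 scale (SE, adjusted p = 3.34e-05, edgeR). Muc13 was lower in R63289 (-0.34 ± 0.083, adjusted p = 0.0187; 2.17% of genes were called lower there) and in R63500 (-0.25 ± 0.082, adjusted p = 0.0355). The call in R63289 was lost without R63289_1, R63289_2 or R63289_3 (adjusted p = 0.145, 0.0988 and 0.0875). The call in R63500 was lost without R63500_1, R63500_2 or R63500_3 (adjusted p = 0.0966, 0.0634 and 0.126) and without R63289_2 or R63289_3 (0.0530 and 0.0510).

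Muc20 moved least. It stood at 37.9 and 32.6 RPKM in R63494, at 30.9, 30.3 and 30.2 in R63289, and at 24.4, 30.1 and 32.3 in R62848. The values were 30.9, 23.2 and 27.4 RPKM in R63500, 24.1, 27.0 and 28.4 in R63496, and 27.3, 23.2 and 22.3 in R62850. Apart from R63494 against R63289, no neighbours in the order of code means were free of overlap. Muc20 was higher in R63494 (0.36 ± 0.103, SE, adjusted p = 0.0166, edgeR) and lower in R62850 (-0.28 ± 0.092, adjusted p = 0.0312). Without R63494_1 the former was 0.24 (adjusted p = 0.290). The latter was lost without R62850_2 (adjusted p = 0.138), R62850_3 (0.152), R62848_3 (0.0531), R63494_1 (0.0586) or R63500_3 (0.0521). The F test over the codes for Muc20 was also lost without R62850_2 (adjusted p = 0.0569), R62850_3 (0.0543) or R63494_1 (0.120).

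R63494 was thus the only code in which all 4 expressed mucins were called in the same direction, against 9.3% of all kept genes called higher. Its libraries R63494_1 and R63494_2 had the lowest fibroblast sums (2610 and 2863 CPM) and epithelial sums of 8222 and 8765 CPM, near the top of the range. As a share of the epithelial sum, R63494 had the highest code mean for Muc1 (16.7% ± 2.51, SD, n = 2) and Muc13 (7.38% ± 0.645). For Muc4 its mean was 9.48% ± 1.91 (SD, n = 2), below R62848 (10.4% ± 2.56, SD, n = 3). For Muc20 it was 1.67% ± 0.254 (SD, n = 2), below R62848 (1.84% ± 0.370) and R63289 (1.76% ± 0.0597, SD, n = 3 each). With the epithelial marker level as a covariate, all 4 calls in R63494 were kept. The part of the fibroblast level in the mucin differences was not tested.

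**Figure D4:**
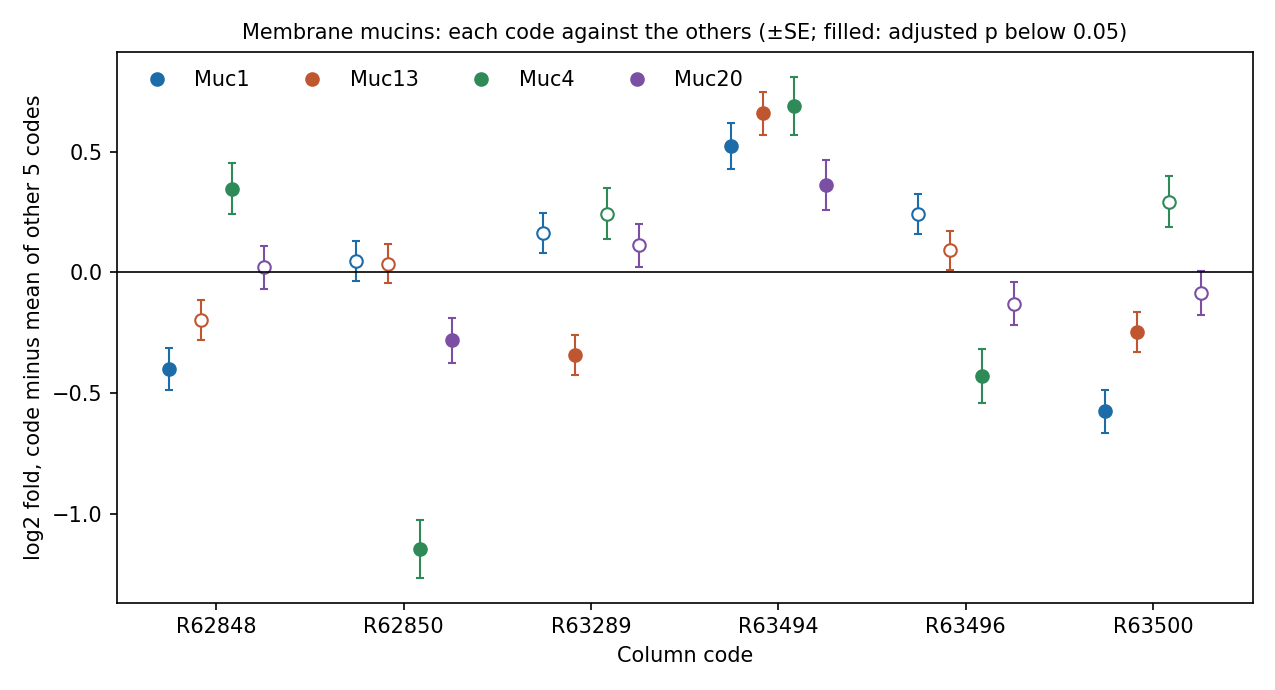
Log2 difference of each column code from the mean of the other 5 codes for the 4 expressed mucins (points, with SE); filled points passed adjusted p below 0.05 in edgeR. All 4 points of R63494 are filled and above 0, and the lowest point is Muc4 in R62850 at -1.15.

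Ratios between mucins of 1 library do not depend on library size. The ratio of Muc1 to Muc4 ranged from 5.06 (R63500_2) to 21.7 (R62850_1), a 4.29-fold range. By code its mean was 19.4 ± 2.25 in R62850 and 14.9 ± 3.87 in R63496, but 6.37 ± 0.583 in R62848 and 5.90 ± 0.742 in R63500 (SD, n = 3 each). Relative to Muc4, Muc1 was thus more abundant in R62850 and R63496 than in R62848 and R63500, and it exceeded Muc4 in every library. The means of R63289 (9.32 ± 1.06, SD, n = 3) and R63494 (8.87 ± 0.462, SD, n = 2) lay between. R63496 was not separated from R63289, since R63496_1 (10.43) lay within the range of the R63289 libraries (8.35 to 10.45). The share of Muc4 among the counts of the 6 mucins ran from 13.3% (R62850_1) to 36.5% (R63500_2).

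Muc20 and Muc4, the overlapping neighbours, did not keep a fixed ratio. Muc20 per Muc4 ranged from 0.419 (R63500_2) to 1.18 (R62850_1). It was above 1 in R62850_1 and R62850_2 only. Muc1 per Muc20 ranged from 10.8 to 20.1, and was 12.2 ± 0.441 in R62848 and 11.8 ± 0.920 in R63500 against 18.9 ± 0.798 in R62850 and 19.3 ± 0.793 in R63496 (SD, n = 3 each). Muc1 per Muc13 ranged from 2.22 to 4.61 and had its highest code mean in R63289 (4.23 ± 0.335, SD, n = 3), the code where Muc13 was lowest.

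**Figure D5:**
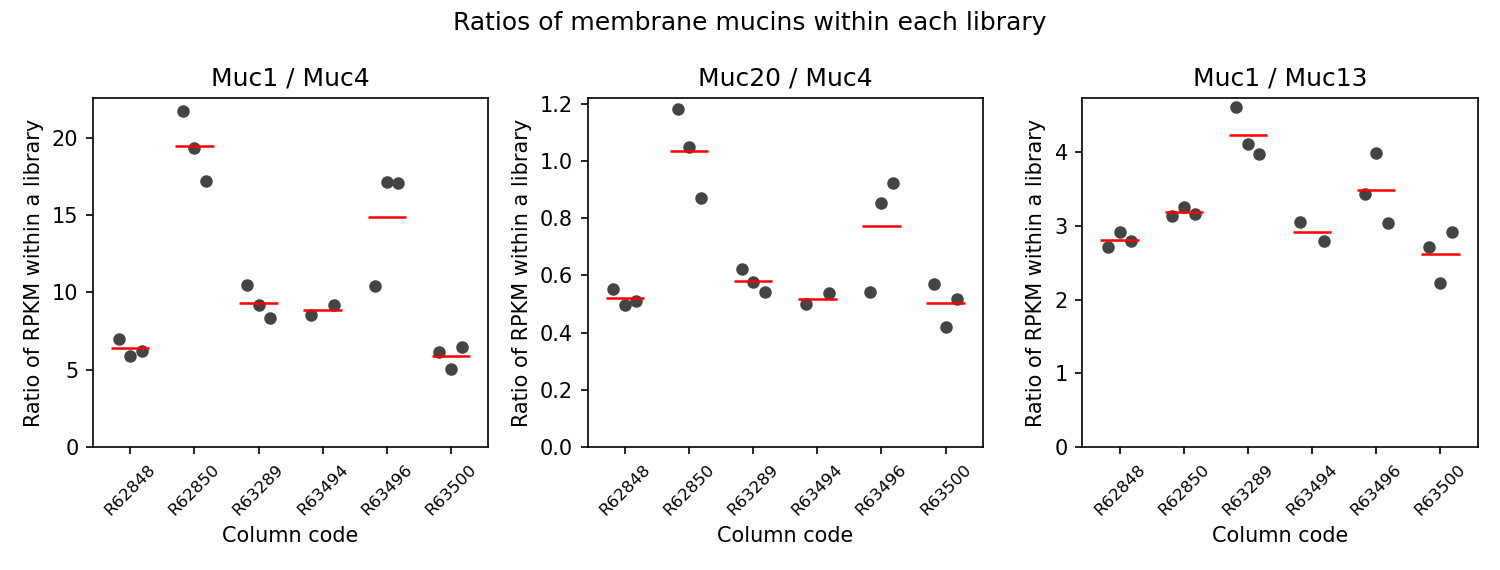
Ratio of RPKM between pairs of membrane-bound mucins in each library (points) by column code, with the code mean (red line). Muc1 per Muc4 is highest in R62850 at a mean of 19.4 and lowest in R63500 at 5.90; Muc1 per Muc13 is highest in R63289.

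Whole profiles were also compared. As a measure of unlikeness, the root mean square difference of the log2 CPM profiles over the 17 libraries was taken, each profile centred on its own mean. Muc1 and Muc13 (0.26) and Muc13 and Muc20 (0.26) were closest among the members, followed by Muc1 and Muc20 (0.29). Muc4 lay at 0.42 from Muc20, 0.59 from Muc13 and 0.65 from Muc1. The median over all kept genes was 0.60 from Muc4, so Muc20 was nearer to it than most genes and Muc13 was about at the median. From Muc1 that median was 0.42, from Muc13 0.38 and from Muc20 0.33. A member with a large SD, such as Muc4, lies farther from most profiles, and one with a small SD, such as Muc20, lies nearer. A small distance between members of small SD is therefore no measure of a common pattern by itself. Part of any likeness reflects what libraries of a code have in common.

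Genes near to Muc1 included Anxa4, a calcium-dependent phospholipid-binding annexin of epithelia (0.11), and Hnmt, the histamine N-methyltransferase (0.11). Nearest to Muc4 were Dennd4c (0.19), Ythdc2, an RNA helicase of the m6A reader family (0.22), and the phospholipid flippase Atp10b (0.23). Muc13 lay nearest to Mkks, Pdxdc1 and the metallopeptidase Nrd1 (0.14 each). Muc20 lay nearest to Tmc5, Plekhb2 and the interferon gamma receptor chain Ifngr2 (0.12 each).

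Other mucin and mucin-like genes gave the setting. Of 13, 9 passed the filter and 9 of those differed between codes, next to 48.7% of all kept genes. Cd164, a sialomucin of many cell types, was at 92.3 RPKM (median), above Muc4. Mcam and Podxl, cell surface glycoproteins also made by vessels, were at 9.87 and 7.31 RPKM. Muc6, the gland mucin of the gel-forming group, was at 9.59 RPKM and ranged from 0.637 to 32.2. The other gel-forming mucins were low: the median was 0.309 RPKM for Muc2, 0.266 for Muc5b and 0.0938 for Muc5ac. Muc2 varied most, with an SD of log2 CPM of 1.92. The median SD of the kept genes was 0.31 for the 4 mucins followed here and 0.80 for these 9. This does not set membrane-bound against secreted mucins. The 9 include Muc3 (SD 1.26) and Muc3a (0.80), which are membrane mucins too, and Cd164 (0.14).

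Muc6 and Muc4 had different orders over the codes. Muc6 had its highest mean in R63494 (26.8 ± 7.70 RPKM, SD, n = 2) and its lowest in R63496 (1.35 ± 1.004 RPKM, SD, n = 3). In R62850, where Muc4 was lowest, Muc6 was at 15.98 ± 5.53 RPKM (SD, n = 3) and Muc2 had its highest mean, 2.98 ± 1.86 RPKM (SD, n = 3).

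Mucins reach the surface only after their repeats have been glycosylated. Of 37 enzymes of O-linked glycan assembly, 31 passed the filter and 24 differed between codes (48.7% of all kept genes did). The most abundant were the sialyltransferase St3gal4 (76.9 RPKM, median), the core-branching enzyme Gcnt3 (42.9), the galactosyltransferase B4galt1 (41.8) and the N-acetylglucosaminyltransferase B3gnt3 (39.7). B3gnt3 was lowest in R63289 (16.4 ± 1.10 RPKM, SD, n = 3). St6galnac1, the sialyltransferase that makes the sialyl-Tn antigen, had the largest SD of the list, 0.81. It was at 4.53 ± 0.165 RPKM (SD, n = 3) in R62850 and 23.1 ± 0.0600 RPKM (SD, n = 2) in R63494, the codes in which Muc4 was lowest and highest. The other codes did not keep the Muc4 order. The St6galnac1 mean of R63289 (21.4 ± 2.76 RPKM) was near that of R63494, and that of R63496 (12.9 ± 2.66) was above that of R62848 (10.5 ± 3.12, SD, n = 3 each). Gcnt4, the other variable enzyme, was low throughout (0.141 to 0.467 RPKM as code means) and did not pass.

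Of 20 signalling partners, ligands and sheddases, 19 passed the filter and 14 differed between codes (48.7% of all kept genes did). Erbb2, the receptor partner of Muc4, did not pass the test, nor did Src, Grb2, Ezr or Prkcd. Ctnnb1, the beta-catenin that binds the Muc1 tail, was at 278 RPKM (median), the membrane linker Ezr at 117 and the membrane protease Mmp14, a Muc1 sheddase, at 78.0. Msln, the binding partner of Muc16, was at 65.9 RPKM (median), from 34.2 ± 0.256 RPKM (SD, n = 2) in R63494 to 94.4 ± 4.39 RPKM (SD, n = 3) in R62848. Muc16 itself was almost undetected in these libraries, counted over the 3′ end of the gene only. The galectin Lgals3, which binds mucin glycans, ranged from 28.5 to 302 RPKM, with 196 ± 98.4 RPKM (SD, n = 3) in R63500.

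Of 22 epithelial transcription regulators, 20 passed the filter and 15 differed between codes (48.7% of all kept genes did). Xbp1, a regulator of the secretory pathway, had the highest median (248.8 RPKM) and did not pass the test. The epithelial factors Elf3, Klf5 and Ehf were at 146, 85.5 and 85.2 RPKM. Klf5 was lowest in R62850 (58.4 ± 4.01 RPKM, SD, n = 3) and highest in R63494 (110.3 ± 9.95 RPKM, SD, n = 2), the same codes as for Muc4. Between these codes the order differed. The Klf5 mean was 85.9 ± 7.89 RPKM in R63496 and 82.2 ± 4.75 in R62848 (SD, n = 3 each), while Muc4 was lower in R63496 than in R62848. Elf3 was high in both R62850 and R63494 (189 ± 11.9 and 189.8 ± 17.9 RPKM). Foxa1 and Foxa3, which varied most in the list, had code means of at most 4.93 and 2.91 RPKM. Over these 4 lists, 62 of the 79 genes that passed the filter differed between codes. The shares to set beside this are 48.7% of all kept genes and 62.7% of those at or above the median level of Muc20.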

How the data were processed

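RNA-seq read counts of 17 mouse bile duct samples were taken from 1 table of the whole series. The deposited count columns hold whole, unnormalized reads per gene. A further 17 per-library columns in another unit were not used here. Per the submitters' processing notes, STAR 2.6.1c, featureCounts and edgeR 3.40.2 were used with mouse build mm10. The role and order of these tools, the featureCounts version and its strand option were not given in the sources used here. The table has 37 mitochondrial genes, and their counts are 0 throughout.

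From the counts, genes were kept with filterByExpr (intercept-only design) in edgeR 4.0.16, scaled with TMM factors and tested with the quasi-likelihood F test over the 6 column codes and for each code against the mean of the other 5. Adjustment was Benjamini-Hochberg over the 15795 kept genes, threshold 0.05. The SE is the log2 difference divided by the square root of F. The biological coefficient of variation within codes was 15.1%. RPKM and CPM used as library size the summed counts of the kept genes times the TMM factor, which leaves out most acinar genes. Log2 CPM used a prior count of 2. A count of 0 allows up to 3 counts, and this limit covers counting error alone, since amplified reads carry no molecular identifiers. Over the libraries, Muc1 made up 0.0661% to 0.148% of the counts.

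The mucins, the gene lists and the tests were chosen with earlier results of these data known. Named are the 6 mucins, the 3 kept genes nearest to each expressed one, the 4 most abundant and the 2 most variable genes of each list and the epithelial markers; other list genes were named after their values were seen. Some genes that this rule names are not reported here. Annotation was GENCODE M21, and promoters were matched by symbol in a RefSeq table of GRCm38.p6, with entries for Muc1, Muc4, Muc13, Muc16 and Muc20. In the lists, 5 genes were matched by identifier. Alternatives covered the scaling, the filter, an epithelial covariate, a block on the running number, DESeq2 and leaving out libraries or codes.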

Additional observations from a re-analysis of the deposited data

How the results depend on the processing

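The F tests over the codes kept their side of the threshold for Muc1, Muc4 and Muc13 under every alternative run, with adjusted p of at most 0.000431, 0.00397 and 0.0239. For Muc20, the adjusted p ran from 0.00697 to 0.155 when single libraries or codes were left out. It was 0.0900 without code R62850 and 0.155 without code R63494, so 3 to 4 mucins were called. The number of genes called was 7692 as reported, 8728 with DESeq2 and 6409 at the lowest. Of 12 called differences of a code from the others, 6 were called under all 24 alternatives: Muc1 in R62848, R63494 and R63500, Muc4 in R62850 and R63494, and Muc13 in R63494. Of the 12 uncalled differences, 3 passed under some alternatives: Muc1 in R63496 under 8 (adjusted p down to 0.0240), Muc4 in R63500 under 7 (down to 0.00805, and 0.0112 with the epithelial covariate) and Muc13 in R62848 under 2 (down to 0.0379). No called difference changed direction. Uncalled differences did so for Muc20 in R62848 (-0.11 with the epithelial covariate, -0.0062 without R62848_2, -0.082 without R62848_3 and -0.017 without R63500_2, in a range up to 0.13 when libraries were left out), Muc1 in R62850 (-0.019 without R62850_1, up to 0.095 without R62850_2), Muc13 in R62850 (-0.042 and 0.099 without the same libraries) and Muc13 in R63496 (-0.035 without R63496_3, up to 0.15). The cause was not tested. Running numbers did not pair the libraries: over 40 same-numbered pairs the correlation of deviations from code means ran from -0.20 to 0.15. With the running number as a replicate block, 7134 genes were called, and all 4 mucins among them. Levels from the deposited values in the other unit, listed as an alternative, were not run. Depth limits Muc15 and Muc16, for which differences below a few reads per library were not detectable. For Muc16 the gene model is a further limit, since 1035 exon bases were counted against 26350 in GENCODE M21.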
